A study of Mus musculus with 47 samples.

Results

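Whole cultures of C2C12 iMyoD1 myoblasts that had received doxycycline (dox) were compared at 48 h and at 24 h of differentiation, to describe which genes moved over the second day in cultures kept in dox. The comparison holds 6 of the 47 RNA sequencing libraries of the series, 3 at each time, chosen by treatment and time alone. C2C12 is a mouse skeletal myoblast line, and the polyclonal population used here keeps its endogenous *Myod1* and carries a dox-inducible Halo-MyoD1 (genotype "endogenous MyoD1 + dox-inducible Halo-MyoD1"), integrated by PiggyBac and driven by the TRE3GS promoter, which only part of the nuclei express. Differentiation was started by serum starvation, and dox was given over the same hours (24h dox or 48 h dox). A further 6 libraries of the same line and genotype, 3 at each time without dox, are set beside them.

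The dox libraries held between 20522001 and 50950674 estimated counts and the libraries without dox between 18598298 and 30444909. Within groups, replicates had Pearson correlations of log2 CPM (counts scaled to a common library size) across genes between 0.986 and 0.992. The 24 h and the 48 h libraries were deposited in different tables, and the labels give a batch (RNAseq_v2) for the 48 h libraries and none for those at 24 h. Time, table and length of dox treatment are thus the same split, so an effect of time and a difference between the tables cannot be told apart. Principal component 1 held 73% of the variance and separated the times, and component 2 held 12.4% and separated dox from no dox. In these bulk cultures, more cells of a type and more RNA per cell cannot be told apart.

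Myoblasts that leave serum stop dividing, switch on myogenin, fuse with each other and fill with sarcomeres, the repeating units of thick and thin filaments that contract. MyoD1 is a basic helix-loop-helix (bHLH) factor that pairs with E proteins and binds E-boxes, DNA words of the form CANNTG and often CAGCTG. Myogenin and the MEF2 factors carry the program on, and Id and Hes/Hey proteins hold it back. Part of a C2C12 culture does not fuse and stays as mononucleated reserve cells.

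Between 24 and 48 h with dox, 2596 of 15080 genes tested rose and 1813 fell past both thresholds, a fold over 2 and an adjusted p under 0.05 (edgeR quasi-likelihood test with Benjamini-Hochberg adjustment), which is 17.2% and 12% of the genes tested, or 29.2% in either direction. Without dox, 2849 genes (18.9%) rose and 1869 (12.4%) fell. Of the genes that rose with dox, 1955 also rose without it, which is 75.3% of the list with dox and 68.6% of the list without, and 20 fell. Of the genes that fell with dox, 1116 also fell without it (61.6% and 59.7%) and 27 rose. The changes with and without dox share no library, but both run between the same tables. Across the 15080 genes they had a Pearson correlation of 0.856 and a Spearman correlation of 0.77, given as a description, since genes are not independent replicates. Scaling by library totals alone moved the median change of all genes with dox to -0.15 on the log2 scale, and 2249 genes then rose and 2270 fell. Values below are on the TMM scale, whose median change with dox was 0.0.

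**Figure D1:**
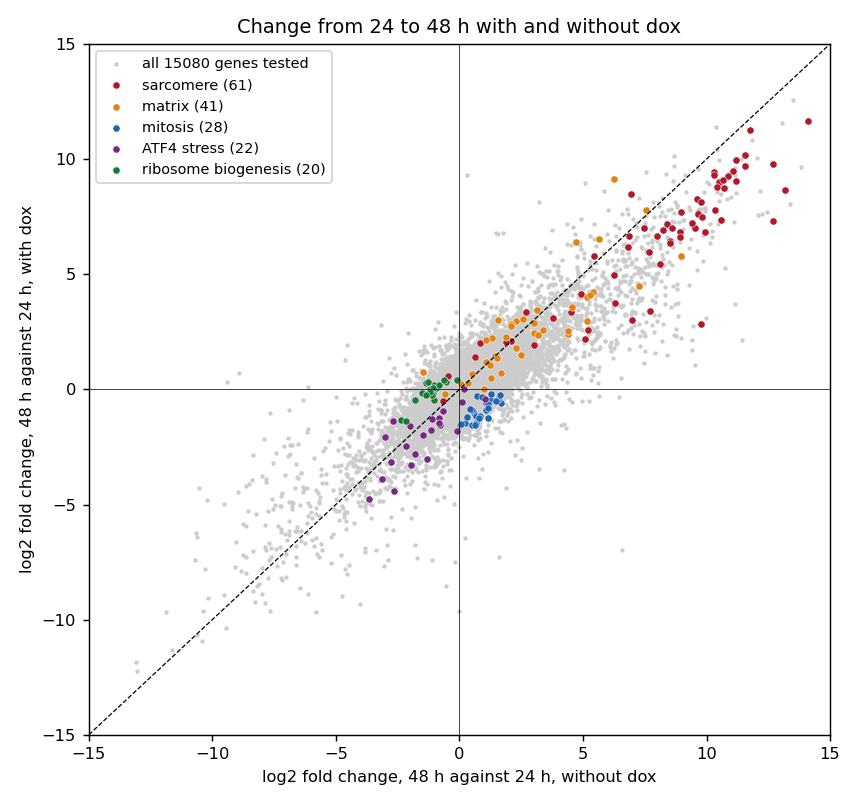
Log2 fold change from 24 to 48 h without dox (horizontal axis) and with dox (vertical axis) for all 15080 genes tested, 1 point per gene, with 5 groups of genes in colour. Most sarcomere genes lie far up on both axes (*Tpm3* and *Tmod4* lie near 0), matrix genes are mostly positive and ATF4 stress genes mostly negative on both, the mitosis genes lie below 0 with dox (median -0.89) while their median without dox was 0.83, and the ribosome biogenesis genes have medians of 0.03 with dox and -1.08 without.

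The difference of these changes, the change with dox minus the change without, was tested as an interaction. Past both thresholds it was positive for 640 genes (4.24% of those tested) and negative for 1351 (8.96%), or 13.2% in all. A negative value marks a gene whose rise was smaller or whose fall was larger with dox, or that rose without dox and fell with it. The same number is the dox effect at 48 h minus the dox effect at 24 h, so all of these values share libraries. Each dox effect lies within 1 table, and a table difference that multiplies a gene alike with and without dox cancels in the interaction.

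*Myod1* (ENSMUSG00000009471, GRCm38 chromosome 7 from 46376474 to 46379099), the gene that the transgene supplies, was counted at 124, 119 and 110 CPM in the dox libraries at 24 h and at 289, 313 and 300 CPM at 48 h. It rose by a log2 fold change of 1.35 (SE 0.06, adjusted p = 7.9e-12), with no overlap between the times. Libraries without dox read 141, 137 and 132 CPM and then 386, 385 and 380 CPM. The dox libraries thus sat below the libraries without dox at both times, with log2 fold changes of -0.22 (SE 0.06) at 24 h and -0.35 (SE 0.06) at 48 h, and whether transgene reads enter this row is not stated in the sources used here. *Myf5*, the other factor of the undifferentiated myoblast, was 4.7, 4.67 and 4.8 CPM at 24 h with dox and 21.1, 22.2 and 18.6 CPM at 48 h, a rise (log2 fold change 2.13, SE 0.09, adjusted p = 1.3e-11). Without dox it was 36.2, 33.7 and 39.6 CPM and then 26.5, 29.5 and 30.5 CPM, so the 24 h dox libraries stand apart as low while the other 3 groups range from 18.6 to 39.6 CPM. The interaction for *Myf5* was 2.47 (SE 0.13), adjusted p = 8.7e-10.

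Myogenin (*Myog*, ENSMUSG00000026459), the factor that commits myoblasts to terminal differentiation, was 4.03, 4.0 and 3.58 CPM at 24 h with dox and 544, 552 and 681 CPM at 48 h. It rose in all 3 libraries far beyond the spread at either time (log2 fold change 7.27, SE 0.11, adjusted p = 6.8e-17). In the cultures without dox the same gene went from 4.76, 5.08 and 5.07 CPM to 1670, 1646 and 1669 CPM. The 24 h levels were close with and without dox, while every 48 h library without dox lay above every one with dox, and the interaction was -1.12 (SE 0.14), adjusted p = 1.1e-05. Of 7 myogenic regulators tested, 5 rose and 1 fell with dox, and the list's median change was 1.35 on the log2 scale. *Mef2c*, a cofactor of myogenin at muscle promoters, had 1 count in all 24 h dox libraries together and 3.66, 2.96 and 2.46 CPM at 48 h, a ratio of 429 with a 95% counting interval from 59.4 to 13061. *Mef2a* rose from 96.7 ± 1.57 to 223 ± 31.4 CPM (SD, n = 3), *Mef2b* fell from 0.815 ± 0.178 to 0.111 ± 0.151 CPM, and *Mef2d* had a log2 fold change of 0.46 (SE 0.07). *Myf6* and *Mstn* had too few counts to be tested.

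The promoters of 4 of the genes that rose are shown with their CANNTG words, the letters that define an E-box. Each is the 250 bases before the RefSeq start on GRCm38.p6, in lower case with every CANNTG word in capitals, read 5′ to 3′ on the gene's strand. *Myog* (chr1:134289754-134290003, plus strand) holds CACATG and CAGTTG, which begin 138 and 12 bases before the start. *Chrna1* (chr2:73580339-73580588, minus strand), the acetylcholine receptor alpha subunit, holds CAGCTG at 92 and 44 bases and CAGGTG at 73. *Acta1* (chr8:123894776-123895025, minus strand), skeletal alpha-actin, holds CAGTTG at 238 and CAGCTG at 221 bases. *Tnnt2* (chr1:135836084-135836333, plus strand), a troponin T, holds CAGCTG at 223 and 157, CACATG at 145 and CACCTG at 94 bases.
Myog: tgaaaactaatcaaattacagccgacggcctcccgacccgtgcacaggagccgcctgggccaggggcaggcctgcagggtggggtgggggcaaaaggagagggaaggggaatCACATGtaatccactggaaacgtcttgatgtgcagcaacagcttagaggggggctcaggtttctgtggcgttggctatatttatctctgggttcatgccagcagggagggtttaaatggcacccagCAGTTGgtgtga
Chrna1: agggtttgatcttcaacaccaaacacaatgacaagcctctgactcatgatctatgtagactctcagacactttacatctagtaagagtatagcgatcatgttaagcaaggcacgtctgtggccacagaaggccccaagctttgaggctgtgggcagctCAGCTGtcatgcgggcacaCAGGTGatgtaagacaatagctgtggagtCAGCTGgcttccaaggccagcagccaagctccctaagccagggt
Acta1: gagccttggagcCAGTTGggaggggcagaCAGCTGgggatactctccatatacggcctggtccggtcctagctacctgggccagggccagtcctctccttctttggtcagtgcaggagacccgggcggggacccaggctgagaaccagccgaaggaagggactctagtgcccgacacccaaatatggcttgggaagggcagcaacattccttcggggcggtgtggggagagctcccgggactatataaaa
Tnnt2: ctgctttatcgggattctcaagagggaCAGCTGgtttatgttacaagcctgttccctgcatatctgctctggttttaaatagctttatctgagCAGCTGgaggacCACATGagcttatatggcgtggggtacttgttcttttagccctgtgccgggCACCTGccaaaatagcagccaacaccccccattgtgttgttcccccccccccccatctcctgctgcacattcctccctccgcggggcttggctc

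Over all genes tested, 10694 (70.9%) had such a window, and 11.9% of the windows held CAGCTG on either strand. The share was 17.7% of the 1570 windows of genes that rose with dox, 11.2% of the 1231 of genes that fell and 10.8% of those of genes called in neither direction. In the sarcomere genes described below, 17 of 49 windows (34.7%) held CAGCTG. Any CANNTG word, of which CAGCTG is a form, was in 56.8% of all windows and in 83.7% of the sarcomere windows, and the MEF2 motif was in 1.64% and 18.4%. A match is a description of the letters and not a binding site.

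Genes were grouped in lists by role. The counts below cover the members with enough counts to test, and at most 3 members of a list lacked them, apart from the imprinted RNAs (4 of 7), the adhesion families (42 of 88) and the markers of other cell types. Over all genes tested, 17.2% rose and 12% fell with dox, the background for the counts of each list. A gene entered the test if at least 3 libraries reached 0.368 CPM (before TMM scaling), and a gene that needed the 48 h libraries for this was tested because of its level there, with or without dox. This applied to 1154 of the 15080 genes (7.65%), and among the lists to 13 of 20 thick filament, 3 of 18 thin filament and 12 of 23 Z-disc and assembly genes, 5 of 19 triad, 4 of 19 energy, 3 of 16 dystrophin and proteolysis, 2 of 13 receptor and synapse, 3 of 14 bHLH, 3 of 41 matrix and 6 of 46 adhesion genes, and to at most 1 gene of any other list. A further 7 adhesion genes needed the 24 h libraries. None of the mitosis, replication, ATF4, ribosome biogenesis or sterol genes depended on 1 time.

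Both fusogens, the membrane proteins that merge myoblasts, rose. Myomaker (*Mymk*) was 1.77, 1.92 and 2.33 CPM at 24 h with dox and 474, 519 and 478 CPM at 48 h (log2 fold change 7.91, SE 0.12, adjusted p = 6.8e-17). Myomixer (*Mymx*) was 1.07, 1.02 and 0.91 CPM and then 108, 133 and 130 CPM (log2 fold change 6.96, SE 0.11, adjusted p = 6.9e-17). Neither gene's groups overlapped. Without dox *Mymk* reached 954, 888 and 814 CPM and *Mymx* 290, 289 and 274 CPM from 24 h levels under 3 CPM, and the interaction passed both thresholds for *Mymx* (log2 fold change -1.58, SE 0.22, adjusted p = 2.9e-05) but was within 2-fold for *Mymk* (log2 fold change -0.88, SE 0.18, adjusted p = 0.0011). Of 10 fusion-related surface and membrane proteins, 4 rose and none fell. M-cadherin (*Cdh15*) was 57.4, 58.5 and 58.9 CPM at 24 h with dox and 469, 471 and 488 CPM at 48 h (log2 fold change 3.03, SE 0.06, adjusted p = 5.4e-16). It reached the same level without dox (493, 458 and 479 CPM) from a lower start (23.4, 24 and 25.4 CPM), and its interaction was -1.26 (SE 0.08). *Jam3*, *Cd9* and *Ehd2* also rose, and *Cdh2*, *Jam2*, *Cd81*, *Kirrel*, *Myof* and *Dysf* had log2 fold changes between 0.21 and 0.99.

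**Figure D2:**
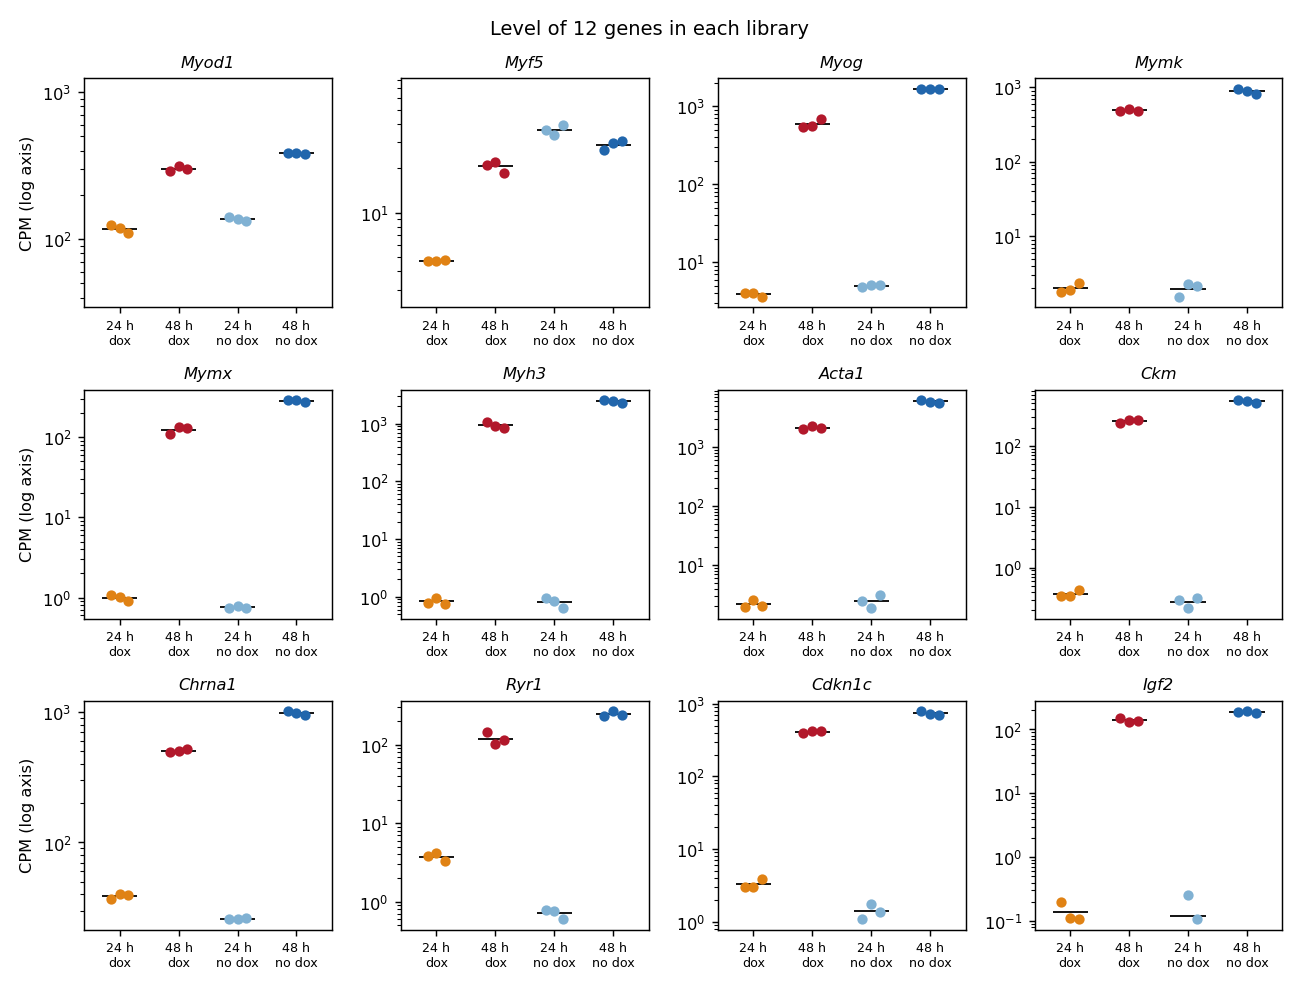
CPM on a log axis in each of the 12 libraries for 12 genes, with 3 points per group and a bar at each group mean. With dox, the 48 h points of all 12 genes lie above the 24 h points, while without dox the *Myf5* points at 48 h lie below those at 24 h, and 1 library at 24 h without dox had 0 *Igf2* counts and is off the axis.

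The sarcomere genes rose nearly as a block. All 20 thick filament genes, 16 of 18 thin filament genes and all 23 genes of the Z-disc and of sarcomere assembly rose with dox, and none fell, with medians of 7.28, 7.75 and 6.43 on the log2 scale (7.1, 7.75 and 6.36 with genes at 0 counts set to their lower bound). Their summed share of counts went from between 0.154 and 0.159% of a library at 24 h to between 1.50 and 1.56% at 48 h. *Myl3*, *Myoz3* and *Xirp2* had too few counts to be tested, and *Myh2*, *Myh4* and *Myot* had 0 counts at 24 h with dox. The filter favoured a rise for the 13, 3 and 12 members that needed the 48 h libraries to reach its minimum, so the counts above are a description of the members tested. Of the members that reached it at 24 h, 7 of 7, 13 of 15 and 11 of 11 rose.

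Embryonic myosin heavy chain (*Myh3*), the main myosin motor of new myotubes, was 0.789, 0.943 and 0.762 CPM at 24 h with dox and 1078, 910 and 858 CPM at 48 h (log2 fold change 10.17, SE 0.14, adjusted p = 5.1e-17). Perinatal *Myh8* had 2 counts over the 24 h dox libraries and 20.5, 20.1 and 18.7 CPM at 48 h, a ratio of 1401 (95% counting interval 299 to 8925). Its neighbours in the same gene cluster, *Myh1*, *Myh2* and *Myh4*, reached 49.6, 1.48 and 0.793 CPM, and their near-identical sequences make the split among them uncertain. The slow and cardiac *Myh7* rose from 0.147 ± 0.0638 to 20.7 ± 2.39 CPM. The light chain *Myl1* had 7 counts over the 24 h libraries and 154, 171 and 172 CPM at 48 h, and *Mylpf* rose from 2.58 ± 0.342 to 791 ± 64.1 CPM. *Mybph*, a myosin-binding protein, rose from 0.862 ± 0.098 to 523 ± 25.7 CPM.

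Of the thin filament, skeletal alpha-actin (*Acta1*) was 1.94, 2.56 and 2.01 CPM at 24 h with dox and 2045, 2225 and 2065 CPM at 48 h (log2 fold change 9.95, SE 0.15, adjusted p = 6.8e-17). Cardiac alpha-actin (*Actc1*), the form used in early myotubes, was 1.32, 1.17 and 1.27 CPM and then 1049, 1055 and 1056 CPM (log2 fold change 9.70, SE 0.11, adjusted p = 7.4e-18). These 2 coding sequences are close to each other and to *Acta2*, so reads may be split among them. All 8 troponin genes rose, from *Tnni3* at 2.11 (SE 0.35) to fast troponin C (*Tnnc2*), which was 0.422, 0.415 and 0.339 CPM and then 247, 268 and 333 CPM (log2 fold change 9.50, SE 0.20, adjusted p = 1.8e-15). Slow, fast and cardiac forms rose together, with *Tnnt1* at 213, *Tnnt2* at 741 and *Tnnt3* at 434 CPM at 48 h (read counts, not levels per length). *Tpm3* had a log2 fold change of -0.50 (SE 0.06) and *Tmod4* one of 0.57 (SE 0.26), neither called.

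At the Z-disc, where thin filaments anchor, alpha-actinin 2 (*Actn2*) had 1 count over the 24 h dox libraries and 47.1, 44.1 and 36.9 CPM at 48 h, a ratio of 6053 (95% counting interval 838 to 184422). The chaperone *Unc45b*, which folds myosin, rose from 0.118 ± 0.0478 to 72.5 ± 2.44 CPM, the stretch-responsive *Ankrd2* from 0.0502 ± 0.0302 to 41.3 ± 2.92 CPM and titin (*Ttn*) from 1.9 ± 0.522 to 215 ± 49.1 CPM. Desmin (*Des*), the intermediate filament around the Z-disc, rose from 245 ± 5.35 to 937 ± 73 CPM, and filamin C (*Flnc*) from 316 ± 26.4 to 831 ± 111 CPM. Outside the sarcomere lists, named for the size of their rise, phosphoglucomutase-like 5 (*Pgm5*) had 0 counts at 24 h and 27.6, 24.2 and 23.6 CPM at 48 h, at least 917-fold higher by a floor of 3 counts over the group. On the same floor *Myo18b* was at least 401-fold, *Smpx* at least 273-fold and *Dhrs7c* at least 204-fold higher.

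Without dox the sarcomere medians were 9.58, 9.38 and 8.51. The interaction was negative and called for 11 of 20, 12 of 18 and 13 of 23 members of the thick filament, thin filament and Z-disc lists (background 8.96%), and positive and called for 0, 1 and 1. The 13, 3 and 12 members that needed the 48 h libraries could enter the test through their level at 48 h without dox. The interaction counts are thus a description of the members tested. For *Myh3* the interaction was -1.39 (SE 0.25), for *Acta1* -1.26 (SE 0.19) and for *Actc1* -1.84 (SE 0.18). At 48 h *Myh3* was 2584, 2448 and 2270 CPM without dox and *Acta1* 6250, 5830 and 5639 CPM, all above the dox libraries, while at 24 h the groups with and without dox overlapped. Tested against a fold of 2 with glmTreat in place of both thresholds, 4 of the 20 thick filament and 5 of the 18 thin filament genes had a called negative interaction, and the interactions of *Myog*, *Myh3*, *Acta1*, *Tnnc2* and *Ckm* did not pass. The summed sarcomere share at 48 h was between 2.95 and 3.10% without dox.

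**Figure D3:**
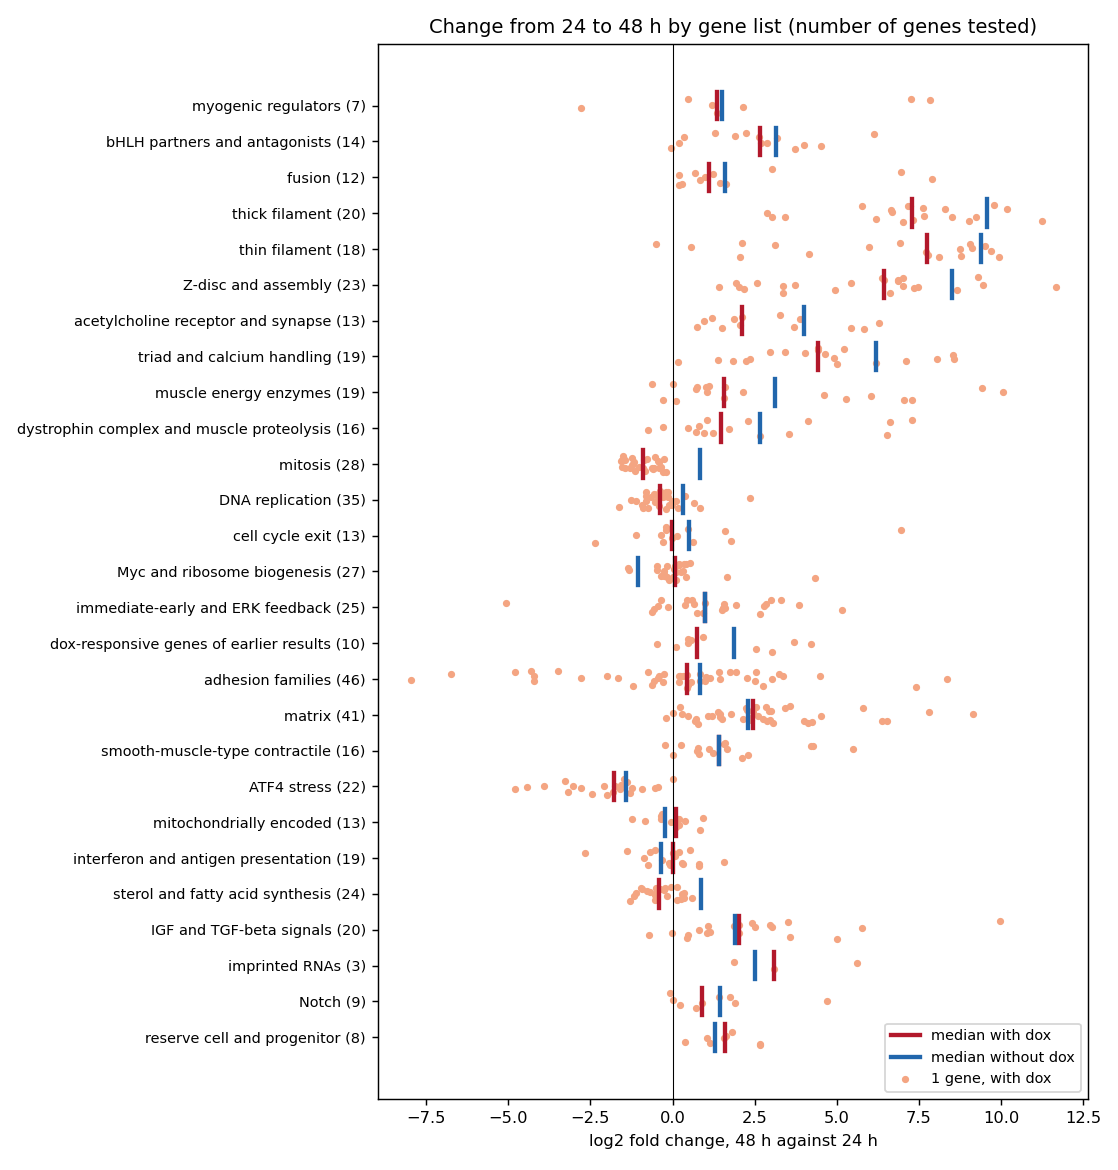
Log2 fold change from 24 to 48 h for each gene list, with 1 point per gene with dox and bars at the medians with dox (red) and without dox (blue), and the number of genes tested in brackets. The 3 sarcomere lists have medians with dox between 6.43 and 7.75, below those without dox, and the mitosis medians lie on either side of 0.

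Of 4 subunits of the acetylcholine receptor, which receives the motor nerve, 3 rose. *Chrna1* was 36.6, 40 and 39.4 CPM at 24 h with dox and 491, 503 and 522 CPM at 48 h (log2 fold change 3.71, SE 0.06, adjusted p = 1.2e-16). The fetal gamma subunit *Chrng* was 2.28, 3.54 and 2.16 CPM and then 194, 208 and 203 CPM (log2 fold change 6.29, SE 0.13, adjusted p = 2.3e-15), and *Chrnd* rose from 4.66 ± 0.113 to 68.6 ± 6.3 CPM. The beta subunit *Chrnb1* was 84, 82 and 83.3 CPM and then 159, 162 and 169 CPM, within 2-fold (log2 fold change 0.97, SE 0.05, adjusted p = 2.2e-10). The groups of these subunits did not overlap. All 7 synapse organizers rose (*Musk*, *Rapsn*, *Dok7*, *Lrp4*, *Agrn*, *Ache* and *Colq*), and over the 13 receptor and synapse genes 11 rose, none fell and the median was 2.12. *Chrna1* at 48 h without dox was 1013, 975 and 944 CPM, and its interaction was -1.52 (SE 0.08), although at 24 h it was higher with dox (0.57 (SE 0.06) on the log2 scale).

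Of 19 genes of the triad and of calcium handling, which couple the membrane's excitation to contraction, 18 rose and none fell (median 4.44). The calcium release channel *Ryr1* was 3.8, 4.15 and 3.3 CPM at 24 h with dox and 144, 101 and 113 CPM at 48 h (log2 fold change 5.01, SE 0.14, adjusted p = 3.8e-14). In cultures without dox it was 0.786, 0.757 and 0.598 CPM and then 231, 267 and 239 CPM. Dox libraries were thus higher at 24 h and lower at 48 h, and the interaction was -3.41 (SE 0.26), adjusted p = 6.3e-08. The calcium store protein *Casq2* was 0.451, 0.452 and 0.169 CPM and then 131, 129 and 124 CPM with dox (log2 fold change 8.58, SE 0.14, adjusted p = 8.7e-17). The pump *Atp2a1* rose from 4.15 ± 0.575 to 299 ± 36 CPM, while the housekeeping pump *Atp2a2* had a log2 fold change of 0.17 (SE 0.09). The interaction was negative and called for 15 of the 19. Of these 19 genes, 5 needed the 48 h libraries to be tested.

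Of 19 enzymes and carriers of muscle energy supply, 13 rose and none fell (median 1.57). Muscle creatine kinase (*Ckm*) was 0.338, 0.339 and 0.423 CPM at 24 h with dox and 241, 269 and 264 CPM at 48 h (log2 fold change 9.41, SE 0.11, adjusted p = 7.6e-18). Myoglobin (*Mb*), the oxygen store, had 9 counts over the 24 h dox libraries and 79.2, 91.4 and 107 CPM at 48 h, against 547, 609 and 610 CPM without dox, and the dox effect at 48 h was -2.67 (SE 0.11). *Ckm*, *Mb* and *Tnnc2* overlap genes on the opposite strand, and the kit as named does not mark strand, so reads of such pairs cannot be told apart. Of 16 genes of the dystrophin complex and of muscle proteolysis 10 rose and none fell (median 1.48), among them the ubiquitin ligases *Trim63* (from 0.158 ± 0.111 to 13.9 ± 1.14 CPM) and *Asb2* (from 0.162 ± 0.137 to 17.2 ± 1.99 CPM).

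The medians of the mitosis genes lay on opposite sides of 0 with and without dox. Of 28 mitosis genes, 13 fell and none rose with dox (median -0.89), whereas 12 rose and none fell without dox (median 0.83). The proliferation marker *Mki67* was 211, 207 and 185 CPM at 24 h with dox and 84.5, 70.1 and 66.9 CPM at 48 h, a fall (log2 fold change -1.44, SE 0.10, adjusted p = 2e-09). Without dox it was 195, 166 and 152 CPM and then 276, 280 and 267 CPM. The 48 h dox libraries were the low group, and those of 48 h without dox the high group, with the 24 h groups side by side between them. The interaction for *Mki67* was -2.13 (SE 0.13), adjusted p = 7.2e-09.

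Cyclin B1 (*Ccnb1*), which drives entry into mitosis, was 54.2, 58.6 and 60 CPM at 24 h with dox and 21.1, 21.4 and 21.4 CPM at 48 h (log2 fold change -1.44, SE 0.06, adjusted p = 4.8e-12), against 84.6, 86.5 and 88 CPM at 48 h without dox. The spindle motor *Kif11* was 64.4, 66.8 and 66.4 CPM and then 23.6, 22.2 and 21.6 CPM with dox (log2 fold change -1.55, SE 0.06, adjusted p = 2.7e-12). The kinetochore genes *Ndc80* and *Cenpe* fell by 1.56 and 1.54 on the log2 scale. For all 28 mitosis genes the interaction was negative and called, with a median of -1.83. Their dox effects had a median of -0.01 at 24 h and -1.82 at 48 h. The summed share of the 28 genes was between 0.179 and 0.181% of counts at 24 h with dox, between 0.0795 and 0.0813% at 48 h with dox, and between 0.250 and 0.260% at 48 h without. How many of the 28 were called with dox depended on the fold threshold, since 27 fell at an adjusted p under 0.05 alone and 11 against a fold of 2 in glmTreat.

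Replication genes moved less. Of 35, 3 fell (the polymerase subunits *Prim1* and *Pola1* and the chromatin assembly factor *Chaf1a*), 1 rose (*E2f2*) and the median was -0.37. The 3 that fell are 8.57% of the list, against 12% of all genes tested. Without the fold threshold 23 fell and 5 rose, and 2 fell against a fold of 2 in glmTreat. *Mcm2*, of the replicative helicase, was 86.4, 85 and 81.5 CPM at 24 h with dox and 63.3, 65.4 and 59.3 CPM at 48 h, within 2-fold (log2 fold change -0.42, SE 0.06, adjusted p = 7.6e-06). *Prim1* was 61.2, 59.2 and 64.7 CPM and then 20.4, 19.8 and 20.3 CPM (log2 fold change -1.62, SE 0.06, adjusted p = 8.6e-13). *E2f2* was 12.7, 11.2 and 10.4 CPM and then 62.9, 50.5 and 63.6 CPM (log2 fold change 2.37, SE 0.09, adjusted p = 3e-12), and higher still at 48 h without dox (183, 181 and 196 CPM). The interaction was negative and called for 10 of the 35, for 30 without the fold threshold and for 3 in glmTreat.

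Of 13 genes of cell cycle exit 3 rose, 2 fell and 8 were not called with dox (median -0.01), and of 5 CDK inhibitors 1 was called. This was *Cdkn1c* (p57), which rose, at 2.99, 3.02 and 3.87 CPM at 24 h with dox and 400, 419 and 424 CPM at 48 h (log2 fold change 6.95, SE 0.11, adjusted p = 6.9e-17). It was 1.08, 1.73 and 1.37 and then 793, 732 and 711 CPM without dox, and its interaction was -2.10 (SE 0.18). *Cdkn1a* (p21), a target of MyoD1, was 393, 373 and 382 CPM and then 553, 596 and 611 CPM with dox, within 2-fold (log2 fold change 0.62, SE 0.06, adjusted p = 4.3e-07), while it rose without dox (log2 fold change 1.29, SE 0.07, adjusted p = 5.6e-11). The retinoblastoma gene *Rb1* was 79.7, 73.3 and 79.7 CPM and then 89.3, 75.4 and 65 CPM with dox, where the groups overlap (log2 fold change -0.01, SE 0.09, adjusted p = 0.89), and it rose without dox (log2 fold change 1.36, SE 0.09, adjusted p = 2.5e-09). Its interaction was -1.37 (SE 0.13), adjusted p = 5.7e-07. The D cyclins went different ways with dox. *Ccnd1* was 16.1, 17.7 and 17.7 CPM and then 50, 51.9 and 54.5 CPM (log2 fold change 1.60, SE 0.07, adjusted p = 1.4e-11), *Ccnd3*, the form of differentiated muscle, rose from 95.9 ± 1.38 to 327 ± 14.9 CPM, and *Ccnd2* fell from 113 ± 3.93 to 21.9 ± 1.28 CPM.

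*Myc*, the growth factor-responsive regulator of ribosome production, was 9.69, 8.75 and 8.17 CPM at 24 h with dox and 28.7, 27.8 and 27.6 CPM at 48 h, a rise (log2 fold change 1.67, SE 0.08, adjusted p = 2.1e-11). Without dox it was 155, 141 and 145 CPM and then 51.7, 47.5 and 45 CPM, a fall (log2 fold change -1.62, SE 0.07, adjusted p = 5.3e-12). The interaction of 3.28 (SE 0.10) (adjusted p = 7.3e-12) thus joins changes in opposite directions, and the dox effect was -4.06 at 24 h and -0.77 at 48 h. *Mycl* rose from 1.67 ± 0.177 to 33.2 ± 1.01 CPM. Of 20 ribosome biogenesis genes, none rose and 2 fell with dox (*Npm1* and *Utp20*, median 0.03), whereas 15 fell without dox (median -1.08). For 14 of them the interaction was positive and called (background 4.24%). The dox effects of the 20 genes had a median of -1.49 at 24 h, where 18 were called lower with dox. At 48 h their median was -0.41 and 0 were called. With dox their share of counts was between 0.320 and 0.325% at 24 h and between 0.219 and 0.222% at 48 h. Without dox it was between 0.705 and 0.723% and then between 0.249 and 0.268%. *Utp20*, which processes ribosomal RNA precursors, was 87.7, 81.6 and 78.9 CPM and then 35.2, 31 and 30.5 CPM with dox (log2 fold change -1.36, SE 0.09, adjusted p = 1e-09). Of the 27 Myc and ribosome genes 15 had a positive called interaction, a count that was 6 against a fold of 2 in glmTreat, 8 with library totals alone and 9 without genes that overlap the opposite strand.

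Of the bHLH antagonists, which restrain the MyoD family, 3 of 4 Id proteins and 6 of 7 others tested rose. *Id1* was 6.03, 5.96 and 7.07 CPM at 24 h with dox and 35.9, 42 and 45.8 CPM at 48 h (log2 fold change 2.68, SE 0.10, adjusted p = 9.8e-13), and *Id3* was 8.36, 7.77 and 7.09 CPM and then 57.9, 72.8 and 81 CPM (log2 fold change 3.19, SE 0.13, adjusted p = 6.3e-12). Of 14 partners and antagonists 10 rose and none fell (median 2.66). Among the E proteins, the partners of MyoD1, *Tcf4* rose from 108 ± 1.72 to 263 ± 17.7 CPM while *Tcf3* and *Tcf12* had log2 fold changes of 0.36 (SE 0.06) and 0.21 (SE 0.08). The Notch targets *Hes1* and *Heyl* rose from 2.4 ± 0.139 to 54.6 ± 6.32 CPM and from 0.243 ± 0.0801 to 18.3 ± 1.43 CPM. *Heyl* was 124, 119 and 121 CPM at 48 h without dox, well above the dox libraries, and its interaction was -3.17 (SE 0.36), while that of *Hes1* was 0.36 (SE 0.15). The Notch ligands *Dll1* (from 2.21 ± 0.536 to 56 ± 4.13 CPM) and *Jag1* (from 2.36 ± 0.229 to 8.91 ± 0.854 CPM), the Notch-modifying *Lfng* and *Notch1* rose, and the other 5 of 9 Notch genes did not pass.

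Genes linked to reserve cells and progenitors rose too, 7 of 8 with a median of 1.60. Without dox 6 of the 8 rose and 1 fell (median 1.29). The interaction was called as positive for 2 and as negative for 2. *Pax7*, the satellite cell factor, was 20.7, 21.5 and 23.3 CPM at 24 h with dox and 153, 132 and 131 CPM at 48 h (log2 fold change 2.67, SE 0.08, adjusted p = 5.9e-14). *Megf10* and syndecan 3 (*Sdc3*) rose from 12.6 ± 1.24 to 79.3 ± 8.39 CPM and from 64 ± 3.22 to 224 ± 11.3 CPM, and *Cd34* had a log2 fold change of 0.38 (SE 0.05).

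Of 25 immediate-early and ERK feedback genes, which respond within minutes to growth signals, 12 rose and 1 fell (median 0.98). *Fos* was 0.563, 0.829 and 0.571 CPM at 24 h with dox and 5.47, 5.56 and 4.33 CPM at 48 h (log2 fold change 3.00, SE 0.22, adjusted p = 6.8e-09). *Egr2* rose from 0.535 ± 0.147 to 7.81 ± 0.0694 CPM and the feedback inhibitor *Spry1* from 0.372 ± 0.112 to 14.2 ± 0.58 CPM. *Atf3* was the member that fell, at 17, 17.2 and 15.7 CPM and then 0.283, 0.607 and 0.64 CPM (log2 fold change -5.06, SE 0.20, adjusted p = 3.4e-12). *Rgs2*, a damper of G protein signalling, was 10.1, 9.95 and 10.5 CPM and then 7.27, 8.36 and 8.46 CPM with dox (log2 fold change -0.35, SE 0.07, adjusted p = 0.00038), but 192, 190 and 194 CPM and then 5.86, 6.46 and 5.82 CPM without. Only the 24 h libraries without dox were high among these 4 groups, and the interaction was 4.64 (SE 0.10).

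Growth factor genes of the IGF and TGF-beta families rose, 15 of 20 with none falling and a median of 2.02. *Igf2*, an autocrine growth factor of differentiating myoblasts, had 15 counts over the 24 h dox libraries and 154, 132 and 135 CPM at 48 h (log2 fold change 9.96, SE 0.18, adjusted p = 3.7e-16). *Igf1* was 2.59, 2.64 and 2.5 CPM and then 86.2, 82.4 and 78.4 CPM (log2 fold change 5.00, SE 0.08, adjusted p = 6.8e-17). At 48 h without dox they read 188, 194 and 183 CPM for *Igf2* and 72.4, 79.3 and 75.1 CPM for *Igf1*. *Igf2* was lower with dox with no overlap, within 2-fold (dox effect -0.42 (SE 0.09), adjusted p = 0.00064), and neither interaction was called (-0.56 (SE 0.65) and 0.22 (SE 0.12)). The imprinted noncoding RNA *H19*, which lies beside *Igf2*, was 33.8, 36.9 and 38.2 CPM and then 1696, 1606 and 2018 CPM (log2 fold change 5.61, SE 0.11, adjusted p = 7.1e-16). The binding proteins *Igfbp3* (from 4.41 ± 0.831 to 237 ± 11.7 CPM) and *Igfbp5* (from 426 ± 7.63 to 3343 ± 372 CPM) rose, and the interaction was 1.67 (SE 0.12) for *Igfbp5*. *H19*, *Peg3* and *Plagl1* were the imprinted RNAs tested, and all 3 rose. *Igf2* and *H19* overlap genes on the opposite strand.

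Extracellular matrix genes rose as well, 33 of 41 with none falling (median 2.44, against 2.30 without dox). *Col1a1*, a chain of type I collagen, was 8.11, 10.4 and 8.97 CPM at 24 h with dox and 220, 206 and 195 CPM at 48 h (log2 fold change 4.51, SE 0.11, adjusted p = 1.6e-14). It reached 923, 1030 and 978 CPM without dox, and its interaction was -2.75 (SE 0.16). *Col3a1*, *Col6a1* and *Bgn* were the most counted of those that rose by more than 4-fold, *Col3a1* from 508 ± 15.1 to 3926 ± 342 CPM, *Col6a1* from 294 ± 16 to 1594 ± 117 CPM and *Bgn* from 159 ± 12.8 to 1874 ± 62.9 CPM. Decorin (*Dcn*) was 0.394, 0.603 and 0.571 CPM and then 40.5, 45 and 46.3 CPM with dox (log2 fold change 6.38, SE 0.14, adjusted p = 2.5e-15), and was lower at 48 h without dox (25.9, 21.6 and 25.6 CPM). *Ccn2*, a target of YAP and SRF signalling, was 0.0282, 0.113 and 0.0212 CPM and then 12, 11.7 and 9.79 CPM (log2 fold change 7.81, SE 0.30, adjusted p = 2e-12). Fibronectin (*Fn1*) had a log2 fold change of -0.20 (SE 0.12). The share of counts in the 41 genes was between 0.836 and 0.890% at 24 h and between 2.26 and 2.65% at 48 h with dox, and between 3.28 and 3.37% at 48 h without.

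Fibroblast markers moved with the matrix genes. Of 6 (*Pdgfra*, *Dpt*, *Pi16*, *Ly6a*, *Clec3b* and *Dcn*), 5 rose and *Pdgfra* did not pass, none was at 0, and their summed level was between 20 and 20.6 CPM at 24 h with dox and between 142 and 164 CPM at 48 h. The part of such cells in the matrix change was not tested. The list of smooth-muscle-type contractile genes, targets of SRF, rose for 10 of 16 with none falling (median 1.41). Smooth-muscle alpha-actin (*Acta2*) was 45.8, 52 and 51.3 CPM and then 2099, 2305 and 2356 CPM (log2 fold change 5.50, SE 0.09, adjusted p = 7.4e-17), *Tagln* rose from 5.15 ± 0.942 to 99.4 ± 15.2 CPM and *Myl9* from 6.98 ± 0.0652 to 128 ± 16.1 CPM. The *Acta2* change was close to that without dox, with an interaction of -0.04 (SE 0.10).

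**Figure D4:**
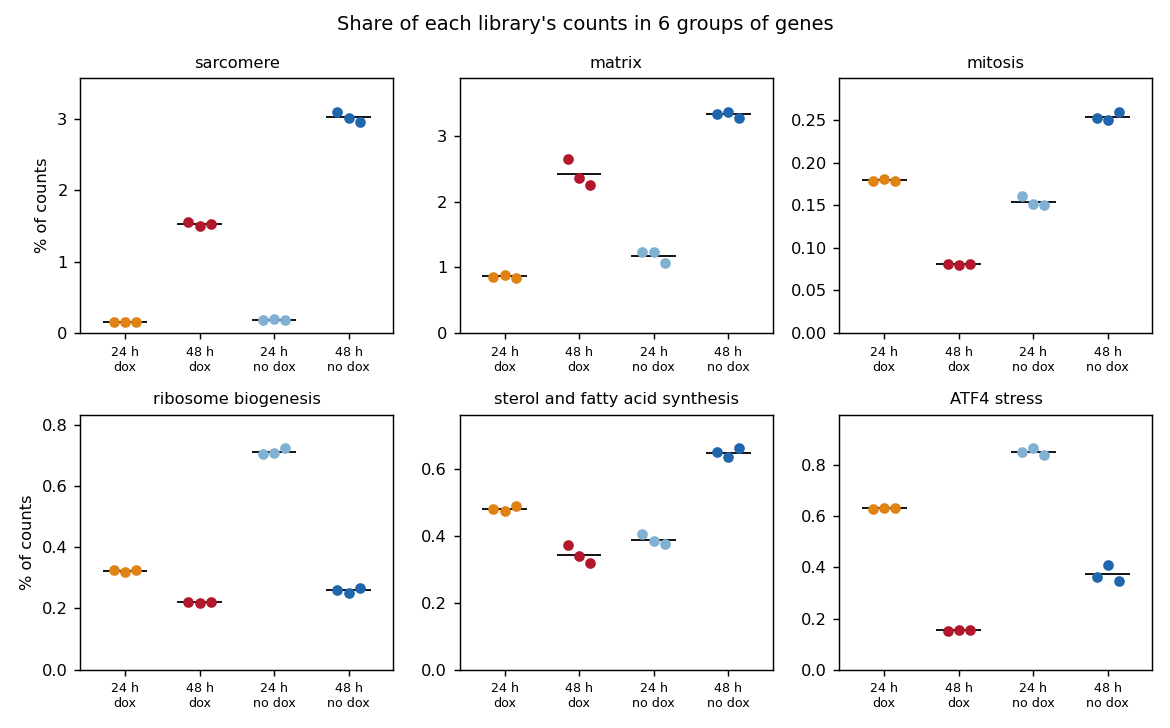
Percent of each library's counts in 6 groups of genes, 1 point per library and a bar at each group mean, on axes that start at 0. The sarcomere share goes from at most 0.159% to at least 1.50% with dox and to at least 2.95% without, the mitosis share goes down with dox and up without, and the ATF4 stress share goes down in both.

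The adhesion genes that dox had raised by 24 h took separate courses. *Cdh23* was 3.3, 3.69 and 3.03 CPM at 24 h with dox and 20.6, 18.6 and 18.7 CPM at 48 h (log2 fold change 2.54, SE 0.13, adjusted p = 6.9e-11), and 8.37, 10.1 and 9.37 CPM at 48 h without dox. *Mcam* was 15.7, 17.7 and 17.6 CPM and then 24.5, 21.9 and 24.4 CPM (log2 fold change 0.47, SE 0.09, adjusted p = 0.00023), with 3.02, 2.45 and 2.25 and 13.1, 12.3 and 12.1 CPM without dox. Its dox effect was 2.73 on the log2 scale at 24 h and 0.92 at 48 h. *Cadm4* was 29.1, 34 and 29.8 CPM and then 40.5, 38.3 and 49.3 CPM (log2 fold change 0.46, SE 0.10, adjusted p = 0.00058), and *Itga3* 136, 132 and 129 CPM and then 207, 195 and 186 CPM (log2 fold change 0.57, SE 0.06, adjusted p = 1.9e-07). For these 2 genes the dox effect was much the same at both times, 2.98 and 3.29 for *Cadm4* and 1.28 and 1.44 for *Itga3*, with interactions of 0.31 (SE 0.18) and 0.16 (SE 0.08).

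*Adgrg1*, an adhesion G protein-coupled receptor, was 102, 112 and 116 CPM at 24 h with dox and 214, 213 and 202 CPM at 48 h, within 2-fold (log2 fold change 0.93, SE 0.07, adjusted p = 6.4e-09). Without dox it was 4.55, 5.19 and 4.96 CPM and then 229, 193 and 217 CPM. The 48 h groups with and without dox overlap, so the dox effect of 4.49 at 24 h was -0.02 at 48 h, and the interaction was -4.51 (SE 0.11), adjusted p = 8.8e-13. *Susd2* went the other way, at 0.817, 0.603 and 0.741 CPM and then 13, 14.1 and 14 CPM with dox (log2 fold change 4.22, SE 0.18, adjusted p = 1.1e-11) and under 0.5 CPM in every library without dox, with an interaction of 2.79 (SE 0.56). The dox-responsive genes here were named from earlier results of these libraries, so their dox effects are descriptions. Of 46 adhesion family genes tested, out of 88 in the tables, 16 rose and 11 fell with dox (median 0.45). *Itga7*, the laminin receptor of muscle, rose from 94.6 ± 4.04 to 457 ± 8.01 CPM and *Vcam1* from 24.8 ± 0.48 to 168 ± 9.14 CPM, while *Cadm3* fell from 11.3 ± 0.542 to 0.534 ± 0.136 CPM and *L1cam* from 4.42 ± 0.264 to 0.245 ± 0.0768 CPM.

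Genes of the ATF4 stress response, which cells use when amino acids run short or proteins misfold, fell, 18 of 22 with none rising (median -1.77). *Trib3* was 179, 175 and 173 CPM at 24 h with dox and 6.89, 8.91 and 8.91 CPM at 48 h (log2 fold change -4.42, SE 0.12, adjusted p = 2.7e-14). *Gdf15*, a secreted stress signal, was 97.3, 102 and 101 CPM and then 3.3, 3.86 and 3.84 CPM (log2 fold change -4.78, SE 0.12, adjusted p = 2.4e-14). Asparagine synthetase (*Asns*) fell from 674 ± 24.4 to 69.8 ± 4.94 CPM, the cysteine-making *Cth* from 98.3 ± 4.09 to 6.55 ± 0.408 CPM and *Atf4* itself from 646 ± 11.5 to 219 ± 14.5 CPM. Without dox 14 of the 22 fell (median -1.41), and the interaction was called as negative for 6 and as positive for 1. The negative count was 4 in glmTreat and 15 without the fold threshold. The positive count was 0 in DESeq2, 2 without 48 h dox replicate 1, and 0 without replicate 2 at 48 h with dox or replicate 1 or 2 at 48 h without dox. The list's share of counts went from between 0.629 and 0.634% to between 0.152 and 0.157% with dox, and at 48 h it was between 0.349 and 0.409% without.

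Sterol and fatty acid synthesis genes differed in their changes. With dox 3 of 24 fell (*Lss*, *Sc5d* and *Elovl6*) and none rose (median -0.40), which is 12.5% of the list against 12% of all genes tested, and without the fold threshold 16 fell and 5 rose. In contrast 9 rose without dox (median 0.88, background 18.9%), and the interaction was called as negative for 14 (median -1.24). *Lss*, lanosterol synthase, was 76, 75.4 and 76.9 CPM and then 33.8, 28.2 and 29.8 CPM with dox (log2 fold change -1.31, SE 0.07, adjusted p = 5.8e-11) and 54.6, 57.2 and 60 CPM at 48 h without dox. Of 19 interferon and antigen presentation genes 1 rose and 2 fell, with a median of 0.0. The count that rose was 2 without 48 h dox replicate 2, 0 in glmTreat and 6 without the fold threshold, where 6 also fell. With single libraries left out the count that fell was between 2 and 3. Of 13 mitochondrially encoded genes, *mt-Atp8* fell (log2 fold change -1.24 (SE 0.15)) and the rest did not pass, and their share of counts was between 3.70 and 4.10% at 24 h and between 3.37 and 3.84% at 48 h with dox. *mt-Atp8* overlaps *mt-Atp6*, so its reads may be split. Against a fold of 2 in glmTreat the falls of *mt-Atp8* (adjusted p = 0.08) and *Elovl6* (adjusted p = 0.085) were not called, and without 48 h dox replicate 1 the count of mitochondrial genes that fell was 2.

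Markers of other cells were checked over whole lists. The 7 myotube markers summed to between 10.6 and 11.5 CPM at 24 h with dox and to between 4901 and 5015 CPM at 48 h (between 12138 and 13289 CPM without dox), and the 6 myoblast markers to between 598 and 614 CPM and then between 2416 and 2580 CPM. Neuron markers were between 80.2 and 83.8 CPM at 24 h and between 25.3 and 28.1 CPM at 48 h, where *Syn1*, *Tubb3* and *Map2* fell and the defining *Snap25* was at 0 in all dox libraries. The 6 macrophage markers summed to between 15.1 and 16.9 CPM at 24 h with dox and between 7.52 and 11.4 CPM at 48 h. Of these *Cd14* fell from 12.6 ± 0.555 to 5.3 ± 1.14 CPM and *Lyz2* from 1.66 ± 0.275 to 0.831 ± 0.163 CPM, *Csf1r* rose from 0.561 ± 0.457 to 2.33 ± 0.856 CPM, *Cd68* had a log2 fold change of -0.18 (SE 0.25), and *Ptprc* and *Adgre1* averaged at most 0.0141 CPM at 24 h and were at 0 at 48 h. The 6 adipocyte markers summed to between 7.88 and 8 CPM and then between 6.73 and 7.48 CPM. Most of that was *Pparg* (log2 fold change -0.61 (SE 0.12), not called) and *Lpl*, which rose from 1.25 ± 0.303 to 2.62 ± 0.417 CPM with dox and fell from 5.26 ± 0.35 to 2.32 ± 0.137 CPM without, while *Adipoq*, *Plin1*, *Fabp4* and *Cidec* each averaged at most 0.0313 CPM with dox. In some alternatives the rise of *Csf1r*, that of *Lpl* or 1 of the 2 macrophage falls was not called. The 8 bone and cartilage markers summed to between 33.5 and 36.2 CPM and then between 78.3 and 81.1 CPM. *Sox9* rose from 9.41 ± 0.0995 to 42.7 ± 0.371 CPM, *Col2a1* fell from 1.84 ± 0.39 to 0.27 ± 0.119 CPM, *Runx2* had a log2 fold change of 0.65 (SE 0.07), within 2-fold, and *Sp7*, *Bglap*, *Ibsp*, *Acan* and *Alpl* averaged at most 0.101 CPM. Endothelial markers summed to at most 1.51 CPM with dox, where *Vwf* rose from 0.136 ± 0.0667 to 0.877 ± 0.0925 CPM.

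The genes with the largest falls were picked for the size of the fall and so, by that choice, were nearly absent at 48 h. Advillin (*Avil*), an actin-severing protein, was 550, 574 and 560 CPM at 24 h with dox and 0.425, 0.215 and 0.492 CPM at 48 h (log2 fold change -10.65, SE 0.16, adjusted p = 6.8e-17). The secreted carbonic anhydrase *Car6* was 111, 113 and 111 CPM and then 0.212, 0.137 and 0.344 CPM (log2 fold change -9.07, SE 0.13, adjusted p = 6.8e-17). The adhesion protein *Tenm2* was 21.4, 19 and 18.9 CPM and then 0 in all 3 libraries, at least 749-fold lower. *Pcdh9*, *Dach1* and *Zbed6* were also at 0 in all 48 h dox libraries, at least 586-fold, 401-fold and 309-fold lower. *Zbed6* lies within another gene and was at 0 in at least 1 library at 24 h without dox, so its estimate is uncertain. Counts of 1 to 3 remained at 48 h for *Dyrk4* (ratio 1997, 95% counting interval 453 to 13500), *H2-M10.1* (1050, 321 to 4555), *Ostn* (1302, 268 to 7982), *Sis* (646, 104 to 22833) and *Cdh22* (417, 85.7 to 2556). *Tsix*, antisense to *Xist*, also fell, and like *Avil* it overlaps a gene on the opposite strand. Without dox all of these genes fell as well.

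Levels at 0 and 120 h, taken over 24 libraries and on their common scale, place these falls beside the table split. *Pcdh9* was between 33.0 and 35.2 CPM at 0 h and between 14.0 and 16.1 CPM at 24 h with dox, which are in 1 table, and 0 in all dox libraries at 48 and 120 h, which are in the other. By a rule set after these values were seen (at least 5 CPM in every library of 1 table and under 0.5 CPM in every library of the other), 4 genes (*Pcdh9*, *Dach1*, *Six3* and *Tsix*) were high only in the table of 0 and 24 h and 46 only in the table of 48 and 120 h, among the latter *Mb*, *Actn2* and *Casq2*. A different 7 genes were high at 24 h and low at both 0 and 48 h, *Car6*, *Tenm2*, *Dyrk4*, *Ostn*, *Cdh22*, *H2-M10.1* and *Taf7l*. At 120 h, in the table that also holds 48 h, *Car6* was again between 40.3 and 57.6 CPM without dox but at most 0.882 CPM with dox, and *Ostn* was between 1.52 and 2.92 CPM without dox and 0 with. *Avil* came close to that rule, at between 0.253 and 0.651 CPM at 0 h, between 543 and 568 CPM at 24 h and between 0.213 and 0.475 CPM at 48 h with dox. *Trib3* was between 7.41 and 8.06 CPM at 0 h, between 170 and 177 CPM at 24 h and between 6.83 and 8.80 CPM at 48 h. For these genes the rise from 0 to 24 h lies within 1 table, while time and table cannot be told apart for the fall that followed.

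**Figure D5:**
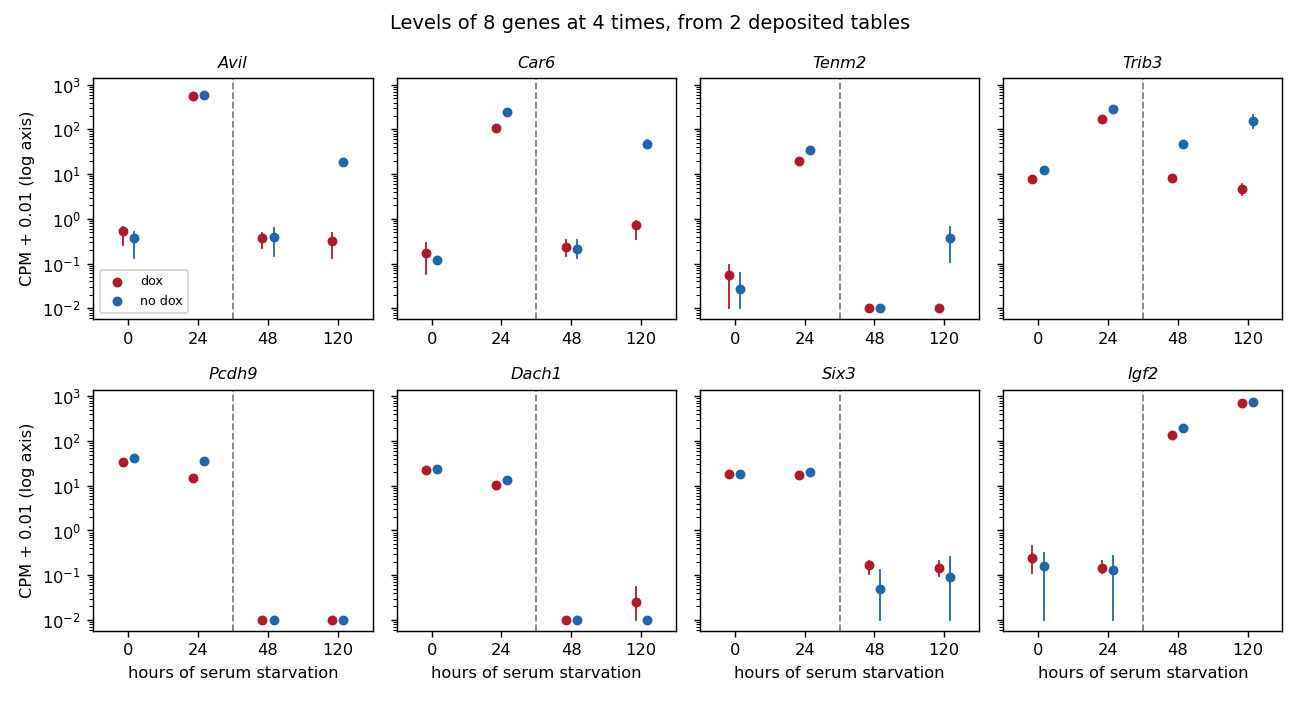
CPM + 0.01 on a log axis against hours of serum starvation for 8 genes, with points at the mean of 3 libraries and bars from the lowest to the highest, with dox in red and without in blue, and a dashed line between the tables. *Avil*, *Car6*, *Tenm2* and *Trib3* peak at 24 h, *Pcdh9*, *Dach1* and *Six3* drop at the dashed line and stay low, and *Igf2* rises there and stays high.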

How the data were processed

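RNA of C2C12 iMyoD1 cultures was enriched for polyA transcripts, and libraries were made with the NEBNext Ultra II RNA kit, which as named does not mark strand. Estimated counts per transcript, made by the authors with Salmon inside the nf-core/rnaseq pipeline, were deposited as separate tables for 0 and 24 h and for 48 and 120 h. The labels name mm10, and the annotation release is not given in the sources used here. Between 33.3 and 35.9% of the deposited expected counts were not whole numbers.

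Estimated counts of 109617 transcripts were summed over 45706 gene identifiers and rounded. GENCODE M21 on GRCm38 held 98.77% of the identifiers and gave positions and strand overlaps. One fit of the 12 libraries (24 and 48 h, with and without dox, 3 each) was made in edgeR 4.0.16 and R 4.3.3, with filterByExpr, TMM factors and the quasi-likelihood test, and p-values were adjusted by the Benjamini-Hochberg method over 15080 genes. Called genes had a fold over 2 with an adjusted p under 0.05. The contrasts were 48 h against 24 h with dox, the same without dox, and their difference. SE is the absolute log2 fold change divided by the square root of its quasi-likelihood F value, an approximation to its standard error. SD is over 3 libraries. Levels are CPM with TMM factors over these 12 libraries, or over 24 libraries where 0 and 120 h are given. They are not divided by gene length. Replicates are labelled as biological replicates, and an exact permutation test of 3 against 3 libraries cannot go below p = 0.1. Intervals and the floor of 3 counts cover counting error only. The scripts were tested on simulated data.

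Named genes were the 12 called genes with the largest rise and the 12 with the largest fall, the 8 largest interactions in each direction (at least 5 CPM in the highest group, libraries not overlapping, predicted genes left out), up to 3 members of each list, and a set list of muscle, cell cycle and adhesion genes. Other list members named are examples picked after their values were seen. Members and lists were chosen with earlier results of these data known. Promoter windows came from RefSeq. Alternatives were RLE factors, library totals, no filter, DESeq2 1.42.0, the replicate number as a block, no fold threshold, glmTreat, removal of genes overlapping the opposite strand, the 6 dox libraries alone, and each library left out in turn. Fractionated cultures and the Cdh23 and Mcam lines were not used here, and a few genes that met the rule or sit in the lists are not reported here.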

Additional observations from a re-analysis of the deposited data

Results flagged for a closer look

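The differences listed here were tested as an interaction, the change from 24 to 48 h with dox minus the change without, which equals the dox effect at 48 h minus that at 24 h (edgeR quasi-likelihood test with Benjamini-Hochberg adjustment). It was positive for 640 genes and negative for 1351. All values are log2 fold changes, and the cause of each was not tested.

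Among genes named for the size of their interaction, the glutathione transferases *Gsta2* (6.24), *Gsta1* (4.43) and *Gsta4* (3.65), which detoxify lipid peroxides, had positive values. *Gsta4* was 82.8, 78 and 86.1 CPM at 24 h with dox, 65, 74 and 80 CPM at 48 h with dox, 391, 416 and 480 CPM at 24 h without and 31.2, 27.3 and 31.9 CPM at 48 h without. The last fell by 3.83 while the dox libraries of both times overlapped. *Gsta1* and *Gsta2* are near-identical copies whose reads may be split, and *Gsta2* had 0 counts at 48 h without dox, so its fitted value depends on the prior count. The G protein regulator *Rgs2* had 4.64, the chemokines *Cxcl5* 3.76 and *Cxcl1* 3.58, the matrix protein *Sned1* 3.58 and the pentraxin *Ptx3* 3.31. *Cxcl5* was 2.65, 2.9 and 2.56 CPM and then 16.7, 19.7 and 24.8 CPM with dox and 10.7, 10.9 and 13.9 CPM and then 6.09, 5.56 and 7.95 CPM without.

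Among the negative values were *Sbk2* (-9.28), *Aldh3b3* (-7.46), *Clic5* (-5.76), *Gpr35* (-5.67), *Bmp6* (-5.49), *Sema3g* (-5.44) and *Mybpc1* (-5.36). Those of *Sbk2*, *Aldh3b3*, *Bmp6* and *Mybpc1* rest on a group with 0 counts and depend on the prior count. The call of *Bmp6* ended without 24 h dox replicate 3 (-3.07, adjusted p = 1.0), without 24 h no dox replicate 2 or 3 (adjusted p = 0.054 and 0.052) and in glmTreat (adjusted p = 0.19), and that of *Mybpc1* without 24 h dox replicate 1 (-4.06, adjusted p = 0.065). *Sema3g*, a secreted guidance protein, was 5.94, 5.13 and 6.16 CPM and then 4.48, 3.6 and 4.38 CPM with dox and 0.414, 1.12 and 0.985 CPM and then 25.9, 26.5 and 27.5 CPM without. It was higher with dox at 24 h and lower with dox at 48 h. *Clic5* fell with dox, at 4.31, 3.54 and 3.56 CPM and then 1.3, 1.45 and 1.23 CPM, and rose without, at 0.414, 0.216 and 0.282 CPM and then 5.27, 7.67 and 4.44 CPM.

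Of genes always reported, the interaction was positive for *Myc* (3.28), *Susd2* (2.79), *Myf5* (2.47) and *Ccnd1* (1.30). It was negative for the muscle genes *Ryr1* (-3.41), *Mymx* (-1.58), *Ckm* (-1.52), *Chrna1* (-1.52), *Myh3* (-1.39), *Acta1* (-1.26), *Cdh15* (-1.26) and *Myog* (-1.12). It was also negative for the cell cycle genes *Mki67* (-2.13), *Cdkn1c* (-2.10), *Ccnb1* (-1.68) and *Rb1* (-1.37), and for *Adgrg1* (-4.51), *Col1a1* (-2.75), *Cdh23* (-2.58) and *Mcam* (-1.81).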

How the results depend on the processing

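With dox, 2596 genes rose and 1813 fell. Without the fold threshold 5582 rose and 5510 fell, and glmTreat against a fold of 2 gave 1920 and 1187. For the interaction (640 called as positive, 1351 as negative) these settings gave 3428 and 3117, and 222 and 687. Other settings stayed within 1.5 times these counts, among them DESeq2 (2554 rose, 1789 fell), library totals (2249 and 2270), the 6 dox libraries alone (2539 and 1767) and removal of genes overlapping the opposite strand (1851 and 1370). Leaving out single libraries, between 2462 and 2583 rose and between 1831 and 2065 fell with dox. The interaction was then called as positive for between 570 and 675 and as negative for between 1283 and 1432.

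With the replicate number as a block, 2578 rose and 1822 fell, and the interaction was called for 622 and 1360. Same-numbered libraries had residual correlations of -0.0101, 0.0307 and 0.0441, so the numbers were not taken as pairs.

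For named genes with dox, 1920 of the alternative values kept direction and side of the threshold, 10 became called, 3 lost the call and 1 changed sign. That was *Rb1*, at 0.09 without 48 h dox replicate 3, with values from -0.18 to 0.09 over single libraries left out. The interaction of *Acta2* ran from -0.11 to 0.01 (the latter without 48 h no dox replicate 1) and that of *Mef2c* from -0.55 (without 24 h no dox replicate 1) to 2.66 (without 24 h dox replicate 3), and none of these 3 was called. For called or always reported interactions, 1481 values kept both, 57 lost the call and 4 gained it. Leaving out 1 library ended the interaction call of *Bmp6* and *Mybpc1* (values above) and of *Mdfi*, *Tnnc2*, *Cox8b*, *Trim63*, *Asb2*, *E2f2*, *Gdf15* and *Igfbp3*. *Sned1* became called with dox without 48 h dox replicate 3 (1.11). The causes were not tested. No alternative separates time from table. Depth limits genes near 0 counts, whose folds are bounds or wide ratios.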
